A study of Mus musculus with 18 samples.

Results

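Coenzyme Q biosynthesis was followed through 10 genes, Pdss1, Pdss2, Coq2, Coq3, Coq5, Coq6, Coq7, Coq8a, Coq9 and Coq10a, chosen by their symbols from the 54347 genes of the deposited count table. All 10 were present and all 10 passed the filter on low counts, which kept 18728 genes. Coq4, Coq8b and Coq10b also belong to the pathway but were not among the chosen genes. They are described beside them with other genes that act around coenzyme Q.

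Coenzyme Q, or ubiquinone, is a lipid of the mitochondrial inner membrane that carries electrons from complex I, complex II and several other dehydrogenases to complex III. Its isoprenoid tail is made from products of the mevalonate pathway and joined to a ring derived from 4-hydroxybenzoate, and the ring is then methylated and hydroxylated by enzymes that assemble on the matrix side of the membrane. Brown adipocytes are dense in mitochondria and oxidise fatty acids and glucose to produce heat through uncoupling protein 1, whereas white adipocytes mainly store triglyceride and hold few mitochondria.

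Polyadenylated RNA was sequenced from 3 fat depots of 6 mice of 12 weeks of age: brown fat from between the shoulder blades (interscapular, iBAT) and white fat from the inguinal (iWAT) and epididymal (eWAT) depots. The mice were of the strain labelled C57BL/6N-{delta}Gm15551, 3 with the genotype wt and 3 with the genotype ko, and each gave all 3 tissues, so that 18 libraries fell into 6 groups of 3. Per the study's methods, the ko allele lacks exon 1 of the long noncoding RNA gene Gm15551 after CRISPR/Cas9 editing in C57BL/6N mice, and the line was backcrossed to wild type animals. The methods give chow as the diet of the mice used for transcriptomes, while the text of the results there speaks of adipose transcriptomes from animals on a high-fat and on a control diet, and the labels give no diet. The deletion is present in every tissue of the ko mice and, as far as the methods describe it, comes from 1 edited line. The series description calls the wild type mice litter mates, and the labels do not say which mice shared a litter. The identifiers of mice wt 2 and ko 2 carry another prefix than those of the other 4 mice, with no meaning stated.

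Total estimated counts per library ranged from 14997901 to 34389586. Gm15551 held 40 to 316 counts in the 9 wt libraries and 0 to 4 counts in the 9 ko libraries, which matches the genotype labels. Levels are given as CPM, the counts scaled to a fixed library total, with the library size corrected by the trimmed mean of M-values (TMM). The summed level of 5 brown adipocyte markers, among them Ucp1, reached 5847 to 11220 CPM in iBAT, 15.5 to 210.7 CPM in iWAT, and in eWAT no more than 15.2 CPM, and 5 general adipocyte markers were present in every library. Some white libraries stood apart by markers of other tissues. The iWAT libraries wt 3 and ko 2 held 1049 and 422.8 CPM of 10 lymphocyte markers against 5.22 to 23.7 in the other iWAT libraries, iWAT ko 1 held 5003 CPM of 12 skeletal muscle markers against at most 27.3 in any other library, and eWAT ko 3 held 5095 CPM of 8 epididymis markers against at most 34.9. The comparisons and count ratios of the 10 genes that rest on these 4 libraries are given with and without them. In bulk tissue, fewer cells of a type and less RNA per cell cannot be told apart.

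The sequence in front of a start site is shown for 3 of the genes, with positions on GRCm38.p6 and letters from RefSeq: for Coq8a, which differed most between tissues, for Coq2, which differed least, and for Pdss2, which lay between them. Each stretch begins 250 bases before an annotated start, reads 5' to 3' in the direction of transcription and ends before the next annotated exon base. Capitals mark a match to a searched motif on either strand. The Coq8a stretch lies on the minus strand at chr1:180196076-180196270, the Coq2 stretch on the minus strand at chr5:100674285-100674506 and the Pdss2 stretch on the plus strand at chr10:43221236-43221485. The Coq8a and Coq2 stretches lie inside the GENCODE intervals of their genes, which reach further upstream, to 180199602 and 100675140. No searched window covered these ends.
Coq8a: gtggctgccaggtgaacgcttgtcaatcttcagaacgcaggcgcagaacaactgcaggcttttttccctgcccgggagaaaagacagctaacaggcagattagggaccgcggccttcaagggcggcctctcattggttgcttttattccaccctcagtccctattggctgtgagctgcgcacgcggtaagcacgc
Coq2: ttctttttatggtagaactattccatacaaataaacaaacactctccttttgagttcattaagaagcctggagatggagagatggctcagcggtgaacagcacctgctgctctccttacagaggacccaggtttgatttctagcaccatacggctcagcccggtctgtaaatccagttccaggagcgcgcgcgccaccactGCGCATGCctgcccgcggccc
Pdss2: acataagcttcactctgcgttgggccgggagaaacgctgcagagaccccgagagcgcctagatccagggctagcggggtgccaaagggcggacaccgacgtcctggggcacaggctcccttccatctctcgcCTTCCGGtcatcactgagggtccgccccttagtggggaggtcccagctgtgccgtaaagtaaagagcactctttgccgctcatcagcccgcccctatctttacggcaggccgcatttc

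RefSeq start-site windows, from 250 bases before a start to 50 bases after it, were found for 9 of the 10 genes, all but Coq5, and several starts gave these 9 genes 12 windows. The capitals in the Coq2 stretch are the reverse complement of GCATGCGC, a core of the site of nuclear respiratory factor 1 (NRF1), from 49 to 42 bases before the start. This motif was present in 2.71% of 32851 windows of all genes and in no window of the other 8 matched genes. The capitals in the Pdss2 stretch are the reverse complement of CCGGAAG, an ETS-family core, which 8.86% of all windows and the windows of 3 of the 9 genes held (Pdss1, Pdss2 and Coq6). The YY1 core AAGATGGCG was in 1.40% of all windows and in that of Coq9. The estrogen-related receptor site TCAAGGTCA was in 0.423% of all windows and in none of the 12. None of the searched letters were found in either Coq8a window, both of which lie inside the gene interval. These matches describe letters and were not tested as binding sites, and no motif overlapped another in the windows of the 9 genes.

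With TMM scaling all 10 genes were higher in iBAT than in each of the white tissues, while with library totals 9 of the 10 were, all but Coq2. The differences with TMM ran from 1.56-fold for Coq2 to 31.2-fold for Coq8a against iWAT and from 1.89-fold for Coq2 to 55.2-fold for Coq8a against eWAT. Each comparison used 6 libraries of each tissue, with genotype in the model. With edgeR's quasi-likelihood test and Benjamini-Hochberg adjustment over all 18728 genes, all 10 passed an adjusted p of 0.05 in both comparisons, where 24.0% of all genes were called higher and 30.3% lower in iBAT than in iWAT, and 24.4% higher and 30.2% lower than in eWAT. For all 10, the lowest iBAT library lay above the highest library of each white tissue, a separation in either direction that 34.6% of all genes had against iWAT and 37.3% against eWAT. The median log2 fold change of the 10 was 1.98 against iWAT and 2.12 against eWAT, and the medians over all genes were -0.14 and -0.17. TMM factors lay between 0.617 and 0.744 for iBAT libraries and between 1.06 and 1.44 for white libraries, and the 13 mitochondrially encoded genes took 21.6% to 24.8% of the counts in iBAT and 3.66% to 9.37% in the white tissues. With library totals in place of TMM, chosen after seeing the data, the median over all genes fell to -0.95 against iWAT and -1.04 against eWAT, the share of called genes that were higher in iBAT went from 44.2% to 10.1% and from 44.7% to 10.7%, and 9 of the 10 coenzyme Q genes were called higher in both.

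**Figure D1:**
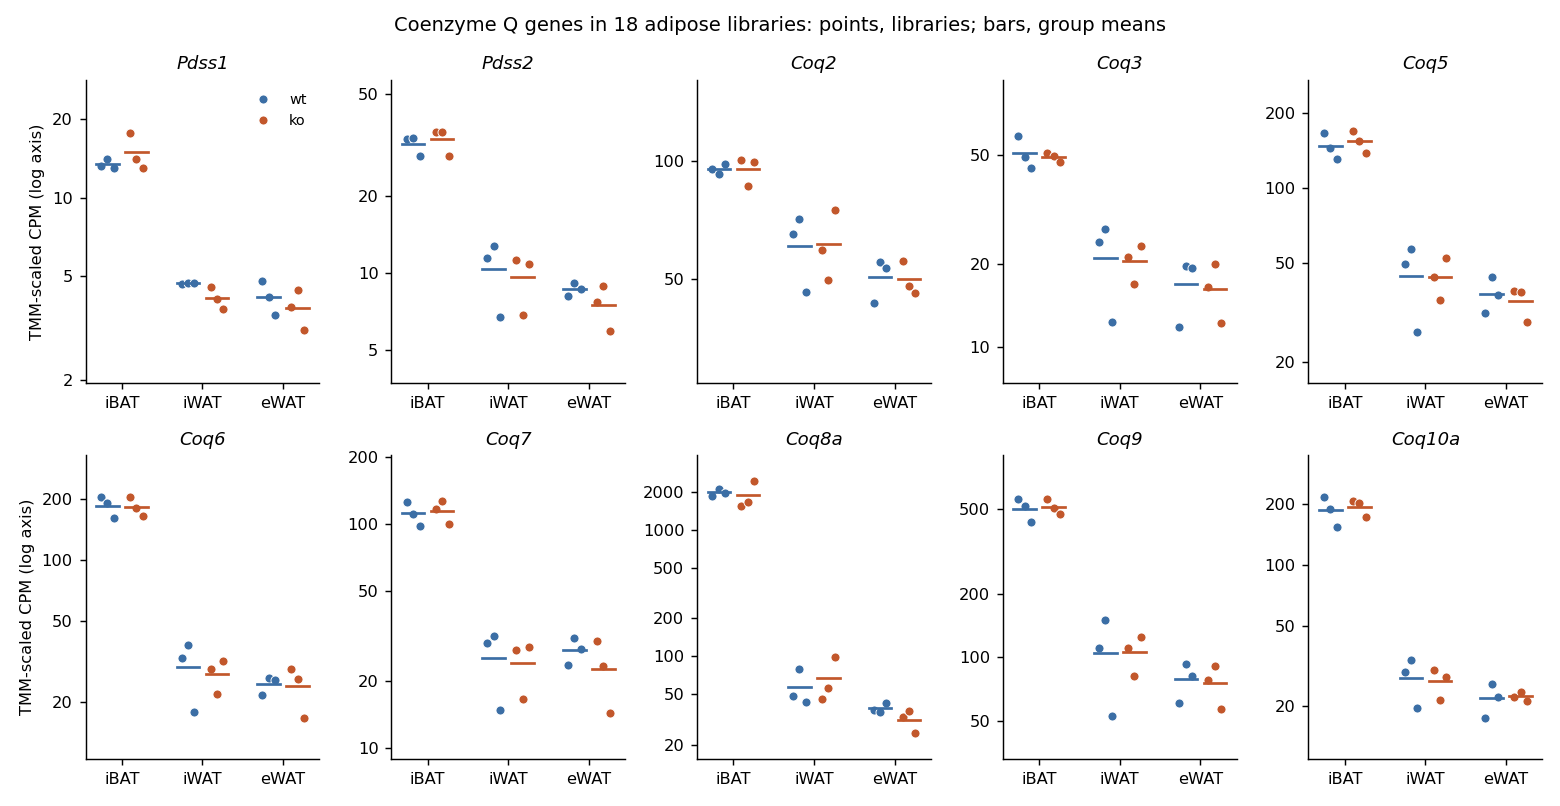
TMM-scaled CPM on a log axis for the 10 coenzyme Q genes in the 18 libraries, by tissue (iBAT, iWAT, eWAT) and genotype (wt, ko). Points are libraries and bars are means of 3 libraries. On this scale every iBAT point lies above every white point of its gene, and the wt and ko points intermingle in nearly all groups.

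Pdss1 and Pdss2 encode the subunits of the prenyl diphosphate synthase that makes the tail. Pdss1 (ENSMUSG00000026784.14, chr2:22895522-22940266, plus strand) had 12.99, 13.7 and 17.7 CPM as the lowest, median and highest of the 6 iBAT libraries, against 3.74, 4.62 and 4.72 CPM in iWAT and, for eWAT, 3.12, 3.996 and 4.79 CPM. It was the lowest of the 10 genes, and its iWAT and eWAT libraries overlapped. Its log2 fold change was 1.68 ± 0.13 (SE, 6 against 6 libraries) for iBAT against iWAT and 1.83 ± 0.14 against eWAT, with adjusted p = 3.266e-08 and 8.598e-09 in edgeR. Pdss2 (ENSMUSG00000038240.13, chr10:43221486-43464882, plus strand) had 28.6, 33.6 and 35.6 CPM in iBAT, against 6.76, 11.1 and 12.8 CPM in iWAT and, for eWAT, 5.94, 8.39 and 9.12 CPM, again with overlap between the white tissues. Its log2 fold changes were 1.71 ± 0.16 and 2.02 ± 0.16, close to those of its partner. The iBAT library ko 1 was the highest for both genes. Exons of Pdss1 overlap exons of Abi1 on the other strand, and exons of Pdss2 overlap those of Gm47856 on the same strand, so some reads may have been assigned to either gene of a pair.

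The ratio of Pdss1 to Pdss2 counts within a library does not depend on the scaling between libraries. It was 0.435 in iBAT, compared with 0.455 for iWAT and 0.495 for eWAT, as geometric means over 6 mice. The log2 ratios of the 3 tissues overlapped, and their SD was 0.13 in iBAT, compared with 0.41 for iWAT and 0.17 for eWAT. No tissue difference in this ratio passed the exact two-sided sign-flip test over the 6 mice (adjusted p = 0.7188 for iBAT against iWAT, 0.1667 for iBAT against eWAT and 0.6136 for iWAT against eWAT, over 12 tests of 4 ratios). The mean log2 difference between iBAT and iWAT was -0.06 and ranged from -0.62 to 0.40 between mice. In wt 1 and wt 2, the 2 mice with none of the 4 libraries that stood apart, the mean differences were 0.07 for iBAT against iWAT, -0.36 for iBAT against eWAT and -0.43 for iWAT against eWAT, with no test.

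Coq2 encodes the prenyltransferase that joins the tail to the ring. Coq2 (ENSMUSG00000029319.8, chr5:100654723-100675140, minus strand) had 86.3, 96.5 and 100.1 CPM in iBAT, against 46.4, 62.2 and 75.02 CPM in iWAT and, for eWAT, 43.7, 50.8 and 55.6 CPM. Its coefficient of variation in iBAT, 5.42%, was the lowest of any of the 10 genes in any tissue. The log2 fold change was 0.64 ± 0.11 against iWAT (adjusted p = 0.0001451, edgeR) and 0.92 ± 0.11 against eWAT (adjusted p = 3.008e-06), the smallest of the 10 in both comparisons. This direction rested on the scaling: with library totals in place of TMM the log2 fold change of Coq2 was -0.15 against iWAT (adjusted p = 0.1316, edgeR) and 0.05 against eWAT (adjusted p = 0.5873). With totals that left out the mitochondrially encoded genes, the values were 0.14 (adjusted p = 0.1928, edgeR) and 0.38 (adjusted p = 0.001649). Measured from the median of all genes, Coq2 was 0.78 higher in iBAT than in iWAT with TMM and 0.80 with library totals.

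The 2 methyltransferases of the ring, Coq3 (an O-methyltransferase) and Coq5 (a C-methyltransferase), were both called higher in iBAT. Coq3 (ENSMUSG00000028247.2, chr4:21879673-21912162, plus strand) had 44.8, 49.5 and 59.0 CPM in iBAT, against 12.3, 22.3 and 26.9 CPM in iWAT and, for eWAT, 11.8, 17.9 and 20.02 CPM. Coq5 (ENSMUSG00000041733.10, chr5:115279666-115296972, plus strand) had 130.9, 148.8 and 169.6 CPM in iBAT, against 26.3, 46.6 and 57.0 CPM in iWAT and, for eWAT, 28.9, 37.5 and 43.7 CPM. The white tissues overlapped for both genes. The log2 fold change of Coq3 was 1.27 ± 0.18 against iWAT and 1.595 ± 0.18 against eWAT, the smallest after Coq2. That of Coq5 was 1.77 ± 0.16 against iWAT and 2.05 ± 0.16 against eWAT.

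Coq6 and Coq7 encode ring hydroxylases, and Coq9 encodes a lipid-binding protein that works with Coq7. Coq6 (ENSMUSG00000021235.13, chr12:84361657-84373796, plus strand) had 160.7, 186.1 and 205.8 CPM in iBAT, against 17.8, 30.4 and 38.0 CPM in iWAT and, for eWAT, 16.7, 25.7 and 29.0 CPM. Its log2 fold change of 2.69 ± 0.18 against iWAT was the largest among the ring-modifying enzymes, and it was 2.94 ± 0.18 against eWAT. Coq7 (ENSMUSG00000030652.11, chr7:118509659-118533356, minus strand) had 98.4, 113.8 and 126.4 CPM in iBAT, against 14.8, 27.8 and 31.6 CPM in iWAT and, for eWAT, 14.3, 25.5 and 30.9 CPM. Its log2 fold changes of 2.19 ± 0.20 against iWAT and 2.18 ± 0.20 against eWAT were nearly the same, and its levels in the white tissues overlapped over almost their whole range. Coq9 (ENSMUSG00000031782.15, chr8:94838321-94854895, plus strand) had 436.4, 510.4 and 560.0 CPM in iBAT, against 53.1, 110.4 and 149.5 CPM in iWAT and, for eWAT, 56.8, 80.3 and 93.5 CPM, with log2 fold changes of 2.28 ± 0.21 and 2.72 ± 0.21. Exons of Coq6 and Coq9 overlap those of Fam161b and Ciapin1 on the other strand, and whether counting used strand is not given in the sources used here, so reads of each pair may have been shared.

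Coq7 and Coq9, whose products act together, did not keep a fixed proportion. The ratio of Coq7 to Coq9 counts was 0.222 in iBAT, compared with 0.238 for iWAT and 0.320 for eWAT. It was lower in iBAT than in eWAT in 6 of 6 mice, by 0.53 ± 0.32 (SD) on the log2 scale, and lower in iWAT than in eWAT in 6 of 6 mice, by 0.43 ± 0.20 (SD), each with exact sign-flip p = 0.03125, the smallest that 6 mice allow, and adjusted p = 0.04688. All ratio tests at the smallest p share this adjusted p, which lay under 0.05 only because most of the 12 tests reached it. Between iBAT and iWAT the mean log2 difference was -0.10, with 2 of 6 mice above 0 and adjusted p = 0.4126 in the exact test. In wt 1 and wt 2 alone the mean differences were -0.70 for iBAT against eWAT, -0.59 for iWAT against eWAT and -0.11 for iBAT against iWAT, with no test.

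Coq8a encodes an atypical kinase-like ATPase needed for the biosynthetic complex, and it showed the largest tissue difference of the 10 genes. Coq8a (ENSMUSG00000026489.13, chr1:180165238-180199602, minus strand) had 1548, 1926 and 2440 CPM in iBAT, against 43.7, 52.4 and 98.9 CPM in iWAT and, for eWAT, 24.6, 36.5 and 42.8 CPM, from 19768 to 37902 counts per iBAT library. The ranges of the 3 tissues did not overlap. The log2 fold change was 4.96 ± 0.24 against iWAT (adjusted p = 2.553e-10, edgeR) and 5.79 ± 0.25 against eWAT (adjusted p = 3.892e-11). Under the scalings tried it stayed between 4.18 and 4.98 against iWAT and between 4.94 and 5.81 against eWAT. Coq8a alone gave most of the summed CPM of the 10 genes in iBAT (median 3246 CPM), against a sum of 394.3 CPM in iWAT and 317.6 CPM in eWAT. Some Coq8a exons overlap exons of Cdc42bpa on the other strand.

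Its paralogue Coq8b was called in neither comparison of iBAT with white tissue with TMM. Coq8b had 31.8, 35.5 and 40.3 CPM in iBAT, against 21.2, 32.5 and 40.5 CPM in iWAT and, for eWAT, 31.8, 39.5 and 47.4 CPM, so that the 3 tissues overlapped. Its log2 fold change was 0.17 ± 0.14 for iBAT against iWAT (adjusted p = 0.3157, edgeR) and -0.16 ± 0.14 against eWAT (adjusted p = 0.3323). With library totals in place of TMM the values were -0.62 (adjusted p = 4.449e-05, edgeR) and -1.03 (adjusted p = 1.796e-07), where the medians over all genes were -0.95 and -1.04 and 68.4% and 70.3% of all genes were called lower, so that nothing is read from these calls. The ratio of Coq8a to Coq8b counts, which no scaling changes, was 54.2 in iBAT, compared with 1.91 for iWAT and 0.882 for eWAT, not corrected for gene length. In log2 units the 6 libraries of each tissue ran from 5.26 to 6.26 in iBAT, from 0.53 to 1.51 in iWAT and from -0.39 to -0.01 in eWAT. The ratio was 28.4-fold higher in iBAT than in iWAT, 61.4-fold higher in iBAT than in eWAT and 2.16-fold higher in iWAT than in eWAT, each in 6 of 6 mice with exact sign-flip p = 0.03125 and adjusted p = 0.04688. The mean log2 differences were 4.83 ± 0.27, 5.94 ± 0.47 and 1.11 ± 0.50 (SD, n = 6 mice). In wt 1 and wt 2 alone the means were 5.13, 6.08 and 0.95, with no test.

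Coq10a encodes a lipid-binding protein that binds coenzyme Q and is needed for its use in respiration. Coq10a (ENSMUSG00000039914.6, chr10:128363100-128368997, minus strand) had 154.9, 196.1 and 218.6 CPM in iBAT, against 19.5, 28.8 and 33.7 CPM in iWAT and, for eWAT, 17.5, 22.3 and 25.9 CPM. The white tissues overlapped and iBAT stood clear of both. After Coq8a it had the largest log2 fold changes, 2.82 ± 0.14 against iWAT (adjusted p = 3.464e-10, edgeR) and 3.11 ± 0.14 against eWAT (adjusted p = 9.838e-11). The ratio of Coq10a to Coq10b counts was 4.15 in iBAT, compared with 1.65 for iWAT and 1.33 for eWAT. It was 2.52-fold higher in iBAT than in iWAT, 3.13-fold higher in iBAT than in eWAT and 1.24-fold higher in iWAT than in eWAT, each in 6 of 6 mice with adjusted p = 0.04688 in the exact sign-flip test. Without pairing by mouse, the difference between iWAT and eWAT had adjusted p = 0.08081 in an exact permutation test. In wt 1 and wt 2 the mean log2 differences were 1.32, 1.62 and 0.30 in the same order, with no test.

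**Figure D2:**
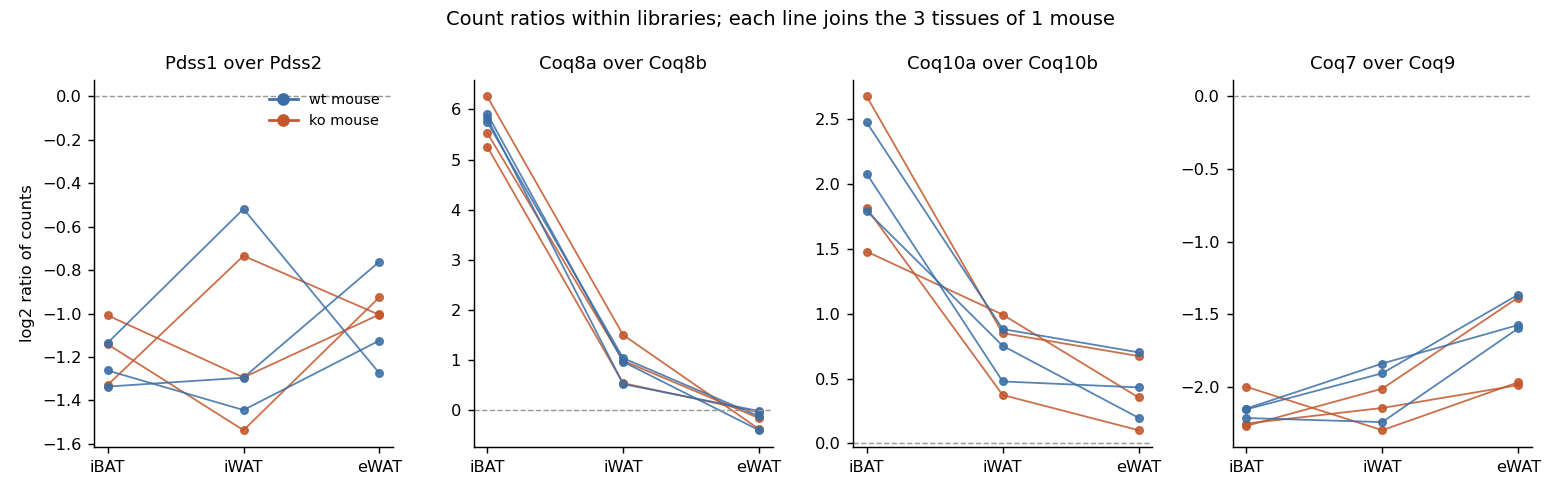
Log2 ratio of counts within a library for Pdss1 over Pdss2, Coq8a over Coq8b, Coq10a over Coq10b and Coq7 over Coq9. Each line joins the 3 tissues of 1 mouse, coloured by genotype, and the dashed line marks equal counts. Coq8a over Coq8b lies between 5.26 and 6.26 in iBAT and between -0.39 and -0.01 in eWAT, while Pdss1 over Pdss2 has no common direction.

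Across genes, levels were compared as CPM per kilobase of merged exons. In iBAT Coq8a was the highest at 366.3 ± 60.4 CPM per kb (SD, n = 6), followed by Coq9 at 166.4 ± 15.6, Coq10a at 74.3 ± 9.26, Coq6 at 58.8 ± 6.15, Coq5 at 49.6 ± 5.14 and Coq2 at 36.3 ± 1.97 CPM per kb. Coq7 and Coq3 followed at 17.6 ± 1.87 and 16.7 ± 1.61, and Pdss2 and Pdss1 closed the order at 5.47 ± 0.54 and 3.34 ± 0.42 CPM per kb. Neighbours whose libraries overlapped in this order were Coq10a and Coq6, Coq6 and Coq5, and Coq7 and Coq3. In both white tissues Coq9 was the highest, at 34.4 ± 11.1 CPM per kb in iWAT and 25.2 ± 5.02 in eWAT, followed by Coq2 at 23.3 ± 4.35 and 19.2 ± 1.93, and Coq8a took rank 4 in iWAT with 11.7 ± 4.21 CPM per kb and rank 6 in eWAT with 6.64 ± 1.15. Pdss1 was the lowest in every tissue. Most neighbours overlapped in the white tissues: the ranges were apart only between Coq7 and Pdss2 and between Pdss2 and Pdss1 in iWAT, and between Coq2 and Coq5 and between Coq7 and Pdss2 in eWAT. The place of Coq7 depended on the length taken, since its merged exons span 6434 bases and its longest coding transcript 1215. With the latter it moved from rank 7 to rank 5 in iBAT, from rank 8 to rank 4 in iWAT and from rank 8 to rank 3 in eWAT. Coq8a then moved from rank 4 to rank 7 in iWAT and from rank 6 to rank 7 in eWAT, and stayed the highest in iBAT.

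By expression over the 18 libraries, the genes most like Coq8a were Ahcyl1, Chkb and Cox5a, with Pearson correlations of log2 CPM of 0.993, 0.992 and 0.991 among 18727 genes compared. Those most like Coq10a were Mrps36, Suclg1 and Letmd1, each at 0.997. The points share their tissue in sets of 6, and the correlations are given as a description.

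Of the other genes of coenzyme Q metabolism, 8 were measured beside the 10, and all passed the filter. With TMM, 7 of these 8 were called higher in iBAT than in iWAT: Coq4, which acts on the ring, at 1.41 ± 0.13, Coq10b at 1.56 ± 0.25, the mitochondrial phosphatase Pptc7 at 1.59 ± 0.13, Hpdl, which helps to make the ring precursor, at 3.59 ± 0.78, the ferredoxin reductase Fdxr at 0.66 ± 0.15, the ferredoxin Fdx2 at 0.61 ± 0.11 and the lipid transfer protein Stard7 at 1.24 ± 0.09 on the log2 scale (SE). Against eWAT 6 of 8 were called higher, all of these but Hpdl, which had 0.94 ± 0.74 and adjusted p = 0.2969 in edgeR. The eWAT library ko 3, which held the epididymis markers, had 30.4 CPM of Hpdl, against 0.889 to 2.51 CPM in the other 5 eWAT libraries, and the part of the epididymis in this value was not tested. Without the 4 libraries that stood apart Hpdl was called as well, at 2.68 (adjusted p = 7.482e-07, edgeR), so that 7 of the 8 were. It was also called without mouse ko 3, at 2.70 (adjusted p = 1.415e-05, edgeR), with wild type libraries only, at 2.55 (adjusted p = 0.005057), with the block by mouse, at 1.95 (adjusted p = 0.02433), and with limma-voom, at 2.07 (adjusted p = 0.02084). Under the other alternatives with an adjusted p Hpdl was not called against eWAT, with adjusted p from 0.2638 to 0.9617 in edgeR. DESeq2 gave it no adjusted p in any tissue comparison and called 6 of the 8 genes against iWAT and 6 against eWAT. With wild type libraries only, Fdx2 was not called against eWAT, at 0.34 (adjusted p = 0.06022, edgeR). Between iWAT and eWAT, Hpdl was the 1 gene of the 8 that was called, at -2.66 (adjusted p = 0.04261, edgeR), and this call was lost when any 1 mouse was left out (adjusted p from 0.05678 to 0.1095). Without the 4 libraries it was at -0.61 (adjusted p = 0.2579), and Coq4 was called higher in iWAT at 0.39 (adjusted p = 0.0322). With library totals in place of TMM, Fdxr and Fdx2 were at -0.16 and -0.20 against iWAT, and 5 of the 8 genes were called higher and 1 lower, where 7.68% of all genes were called higher and 68.4% lower. The corresponding counts against eWAT were 4 higher and 2 lower, where the shares of all genes were 8.43% and 70.3%. For iWAT against eWAT they were 0 higher and 2 lower (Hpdl and Coq8b), where the shares were 5.01% and 6.42%. Coq8b was at -0.40 there (adjusted p = 0.01852, edgeR), and at -0.33 with TMM (adjusted p = 0.1374).

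Genes that supply or use coenzyme Q differed in how far they moved with the 10. With TMM, 24.0% of all genes were called higher and 30.3% lower in iBAT than in iWAT, and 24.4% and 30.2% than in eWAT. Of 9 mevalonate pathway genes, which supply the tail, 4 were called higher in iBAT and none lower in each comparison. Their medians were 0.45 against iWAT and 0.61 against eWAT on the log2 scale, and Acat2 (1.51 and 1.88) and Pmvk (1.19 and 1.16) had the largest differences against iWAT. Of 12 genes of dehydrogenases and oxidoreductases that pass electrons to coenzyme Q, 8 were called higher and 1 lower against iWAT, and 8 higher and 2 lower against eWAT. The counts of these 12 and of the mevalonate genes hold for TMM, and those with library totals are not given here. With library totals the median over all genes was -0.95 against iWAT and -1.04 against eWAT, so smaller differences may rest on the scaling. Gpd2, the mitochondrial glycerol-3-phosphate dehydrogenase, had 3.56 and 4.79, and Etfdh, which passes electrons from fatty acid oxidation, had 3.01 and 3.60. Nqo1, a cytosolic quinone reductase, was lower at -1.77 and -2.74, and Prodh, a proline dehydrogenase, was called lower against eWAT at -0.95 and had -0.34 against iWAT (adjusted p = 0.2957, edgeR). All 9 nuclear genes of complex III, which oxidises the reduced coenzyme, were called higher, with medians of 2.66 and 2.98 (Uqcrc1 at 3.08 and Cyc1 at 2.83 against iWAT), as were all 13 mitochondrially encoded genes, with medians of 2.48 and 3.28 (mt-Co2 at 2.76 and mt-Atp6 at 2.75 against iWAT). Of the 10 coenzyme Q genes, 3 lay above the complex III median against iWAT (Coq6, Coq8a and Coq10a) and 2 against eWAT (Coq8a and Coq10a). Coq8a lay 2.30 and 2.81 above this median, and Coq2 lay 2.02 and 2.07 below it.

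**Figure D3:**
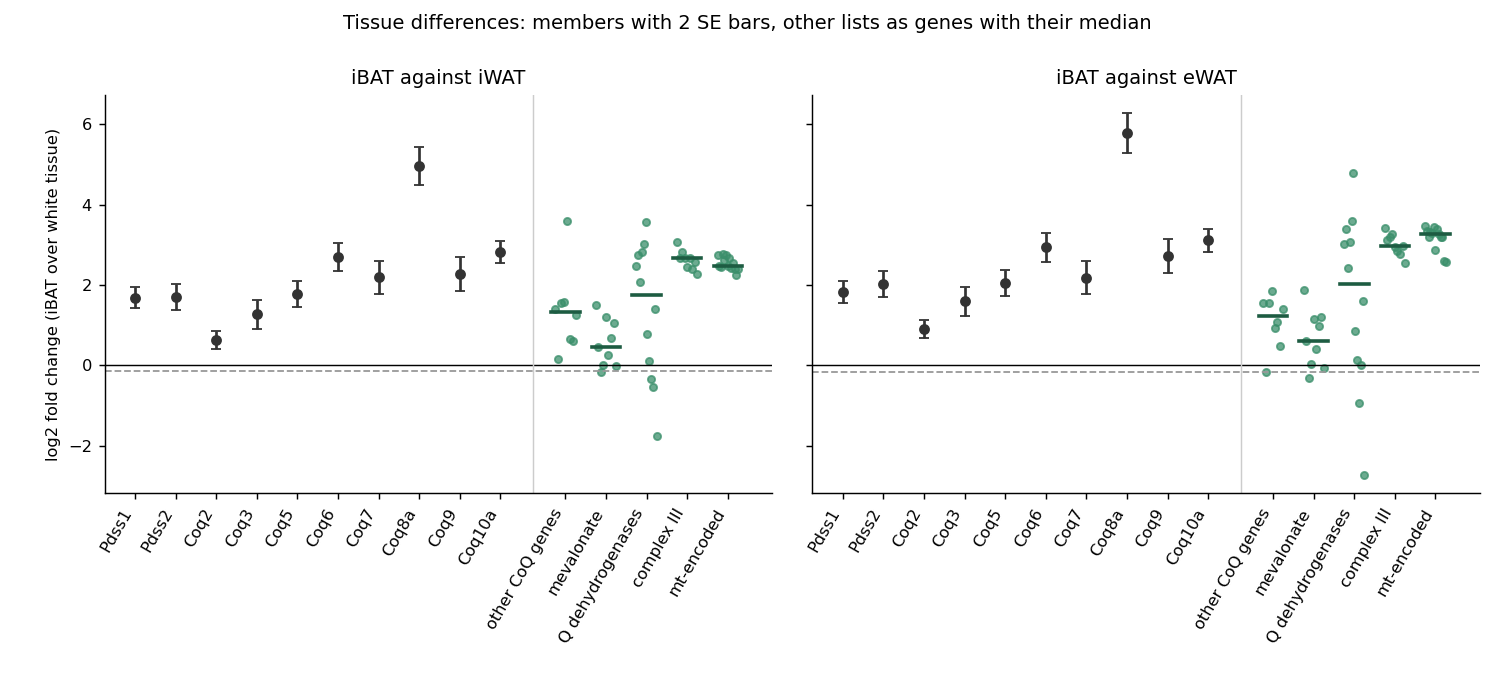
Log2 fold changes of iBAT over iWAT and of iBAT over eWAT for the 10 coenzyme Q genes, with bars of 2 SE from the edgeR fit of all 18 libraries, and for 5 related lists, shown as genes with their median. Coq8a lies above every other coenzyme Q gene at 4.96 and 5.79, Coq2 is the lowest of the 10, and most of the rest lie under the complex III medians of 2.66 and 2.98.

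Between the white tissues Coq8a was the only one of the 10 genes called with all libraries, whereas 8 of the 10 were called higher in iWAT, at 0.42 to 1.02 on the log2 scale, without the 4 libraries that stood apart. That leaves 3 iWAT libraries, of which wt 2 and ko 3 held the most brown adipocyte marker RNA of the tissue, against 5 eWAT libraries. Coq8a was 1.77-fold higher in iWAT than in eWAT, with a log2 fold change of 0.82 ± 0.21 (SE, 6 against 6 libraries) and adjusted p = 0.01894 in edgeR. It was the only one whose ranges did not overlap, the lowest iWAT library having 43.7 CPM and the highest eWAT library 42.8. Of all genes, 5.70% were called higher and 4.50% lower in iWAT than in eWAT, and 4.62% had ranges that did not overlap. The other 9 lay between -0.01 for Coq7 and 0.45 for Coq9, with adjusted p of 0.1244 or more in edgeR, and 4 of the 10 (Coq2, Coq8a, Coq9 and Coq10a) had an unadjusted p under 0.05. Of the 10 values, 9 were above 0, with a median of 0.28 against 0.01 over all genes and 0.39 over the 9 complex III genes. The shares of all genes with such an unadjusted p, or with a value above 0, are not given here. Nothing is read from these counts.

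The call of Coq8a between the white tissues moved with the samples included. It was lost without mouse ko 2 (0.87, adjusted p = 0.07157 in edgeR), without mouse wt 2 (0.73, adjusted p = 0.0934), with the 4 mice that share an identifier prefix, that is without wt 2 and ko 2 (0.76, adjusted p = 0.2854), with the 6 iWAT and 6 eWAT libraries alone (0.81, adjusted p = 0.06094) and with wt libraries alone (0.56, adjusted p = 0.3478). The highest Coq8a values of iWAT, 98.9 CPM in ko 3 and 79.4 in wt 2, were in the libraries with the most brown adipocyte marker RNA, 188.5 and 210.7 CPM of the 5 summed markers, all 5 of them detected. Coq8a lay between 43.7 and 56.3 CPM in the other 4 iWAT libraries, which held 15.5 to 89.5 CPM of these markers. The part of brown adipocyte RNA in the difference was not tested. The library with skeletal muscle markers, iWAT ko 1, had 45.7 CPM of Coq8a, below the iWAT median of 52.4.

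Without the 4 libraries that stood apart by other markers, 8 of the 10 genes were called higher in iWAT than in eWAT, where 5.70% of all genes were called higher and 4.55% lower. Of the libraries left out, iWAT wt 3 was the lowest of its tissue for 9 of the 10 genes and iWAT ko 2 was among the lowest 2 for 9. On the other side, eWAT ko 3 was the lowest of its tissue for 7. The 3 iWAT libraries left, wt 1, wt 2 and ko 3, held 61.3, 210.7 and 188.5 CPM of the 5 brown adipocyte markers, against no more than 15.2 CPM in eWAT, and the part of brown adipocyte RNA in the 8 calls was not tested. The median over the 10 genes was 0.46, against 0.59 over the 9 complex III genes and 0.01 over all genes. Coq8a had 1.02 (adjusted p = 0.004601, edgeR). Pdss1 and Coq7 were not called, with 0.07 and 0.14. The comparisons of iBAT with the white tissues still called all 10 without these libraries, with Coq8a at 4.67 and 5.69 and Coq2 at 0.42 and 0.88.

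Within the white tissues, some libraries were low for nearly all of the 10 genes. In iWAT wt 3, the library richest in lymphocyte markers, 9 of the 10 genes lay below the median of the 6 iWAT libraries, by a median of -0.74 on the log2 scale, and 9 were the lowest of their tissue. The exception was Pdss1, at 4.72 CPM the highest of the 6. In iWAT ko 2, 9 of 10 lay below the median, by -0.40. The 5 adipocyte markers summed to 7718 CPM in iWAT wt 3 and 11270 in iWAT ko 2 against 19840 to 22260 in the other iWAT libraries. In eWAT ko 3, with the epididymis markers, all 10 lay below the eWAT median, by -0.50, and in eWAT wt 1 8 of 10 did, by -0.23. Adipocyte markers summed to 9966 and 14800 CPM in these libraries against 21540 to 22720 in the other eWAT libraries. In iWAT wt 2, with the most brown adipocyte markers, none of the 10 lay below the median and the median deviation was 0.25. The median deviations of the iBAT libraries were smaller, between -0.20 in wt 3 and 0.13 in wt 1. Coq8a went against the other genes there: it was at its highest in iBAT ko 3, 0.34 above its median, where 8 of the 10 genes lay below theirs, and at its lowest in iBAT ko 1, at -0.31, where 5 genes were at their highest. The part of the cell mixture in these shifts was not tested.

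**Figure D4:**
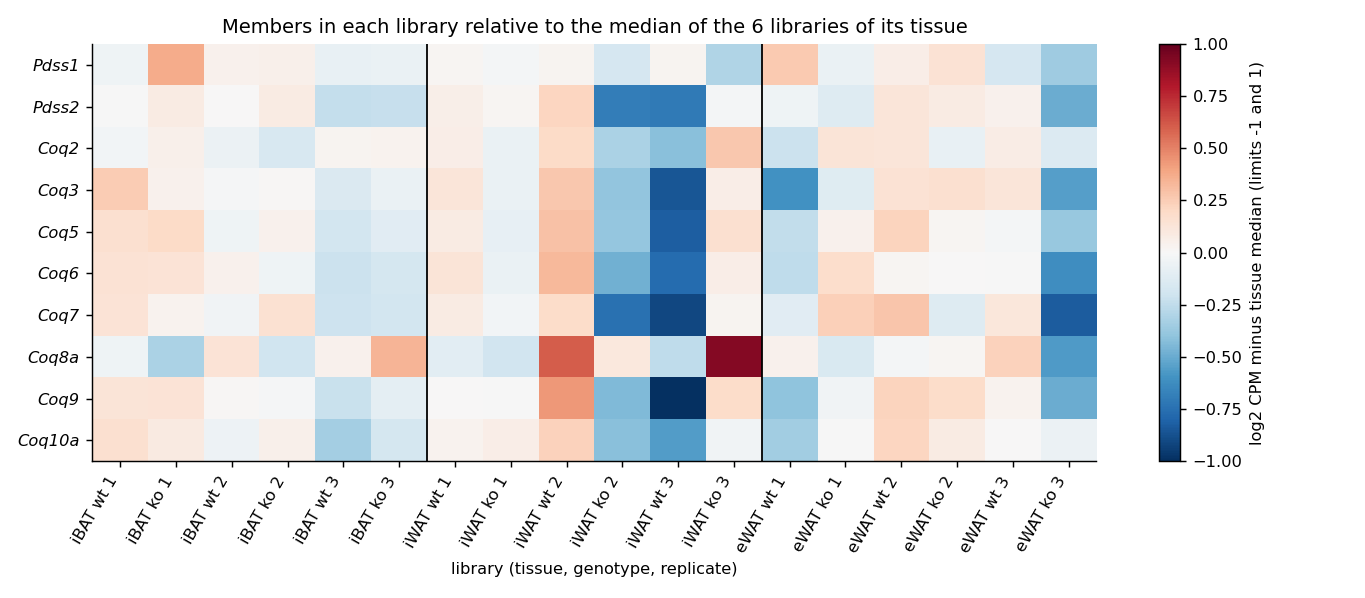
Log2 CPM of each of the 10 genes in each library minus the median of the 6 libraries of its tissue, with the colour scale limited to -1 and 1. Libraries are named by tissue, genotype and replicate. The columns of iWAT wt 3, iWAT ko 2 and eWAT ko 3 are low for nearly all genes, with median deviations of -0.74, -0.40 and -0.50.

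The loss of Gm15551 exon 1 was compared with wild type across the 3 tissues, within each tissue and as an interaction of tissue and genotype. None of the 10 genes were called in any of these comparisons. Across tissues, with 9 against 9 libraries, the log2 fold changes of ko against wt ran from -0.10 ± 0.16 (SE) for Coq7 to 0.01 ± 0.11 for Coq10a, and all had adjusted p = 0.9999 in edgeR. No member had an unadjusted p under 0.05, and DESeq2 and limma-voom called none either. Of all 18728 genes, 0.00534% (1 gene) were called, and 411 had an unadjusted p under 0.05. The intervals of 2 SE reached from -0.18 to 0.18 for Coq2, from -0.38 to 0.28 for Coq8a and from -0.33 to 0.32 for Coq9, and the lowest bound was -0.42, for Coq7. The 9 libraries of a genotype came from 3 mice and were taken as independent in this fit. Without the 4 libraries that stood apart, 3 of which were ko, 0 of the 10 genes were called across tissues, within a tissue or in the interaction.

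In iBAT the means of wt and ko libraries lay close for every gene. Coq8a had 1869, 2117 and 1982 CPM in wt and 1548, 1677 and 2440 CPM in ko iBAT, with a log2 fold change of -0.08 ± 0.29 (SE, 3 against 3 libraries). The ko libraries held both the lowest and the highest value. Over the 10 genes the changes ran from -0.08 to 0.15, the largest being that of Pdss1 (interval -0.22 to 0.53), with 0 genes called, 0 at an unadjusted p under 0.05 and 0 called by DESeq2 or limma-voom. In iBAT 0% of all genes were called by edgeR, and 238 had an unadjusted p under 0.05. Gm15551 itself was thus not called in iBAT, although it held 40 to 68 counts in wt and 0 in ko libraries. The lack of a call within a tissue therefore does not show that a gene is unchanged. All 10 genes overlapped between the genotypes, where 4.94% of all genes did not.

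In iWAT the changes ran from -0.18 for Pdss1 to 0.23 for Coq8a, and in eWAT from -0.30 for Coq8a to 0.03 for Coq10a. In iWAT, Coq8a had 48.5, 79.4 and 43.7 CPM in wt and 45.7, 56.3 and 98.9 CPM in ko. In eWAT, it had 37.6, 36.05 and 42.8 CPM in wt and 32.9, 37.0 and 24.6 CPM in ko, the lowest value being that of the library with epididymis markers. The intervals of Coq8a reached from -0.36 to 0.82 in iWAT and from -0.89 to 0.29 in eWAT. Again 0 of the 10 genes were called in either tissue by edgeR, DESeq2 or limma-voom, with 0 at an unadjusted p under 0.05. Of all genes, edgeR called 0% in iWAT and 0.00534% in eWAT, with 415 and 814 genes at an unadjusted p under 0.05. Gm15551 was thus not called in iWAT either, at 59 to 316 counts in wt and 0 to 1 in ko libraries. Without the 4 libraries the median change over the 10 genes went from -0.05 to -0.13 in iWAT, where 2 wt and 1 ko library remained and the lone library was assumed to vary like the others, and from -0.08 to 0.03 in eWAT, with 3 wt and 2 ko libraries.

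Pdss1 in iWAT was the only case of 30 without overlap between genotypes. It had 4.68, 4.70 and 4.72 CPM in wt and 4.56, 4.11 and 3.74 CPM in ko, with a log2 fold change of -0.18 ± 0.19 (SE, 3 against 3 libraries). Ranges did not overlap for 4.92% of all genes in iWAT and for 5.25% in eWAT. The interaction called 0 of the 10 genes and 0% of all genes in edgeR, with 0 of the 10 at an unadjusted p under 0.05 and 0 called by DESeq2 or limma-voom. None of the genes of the other coenzyme Q, mevalonate, dehydrogenase, complex III and mitochondrially encoded lists were called between genotypes. The libraries with muscle and with epididymis markers were both ko.

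**Figure D5:**
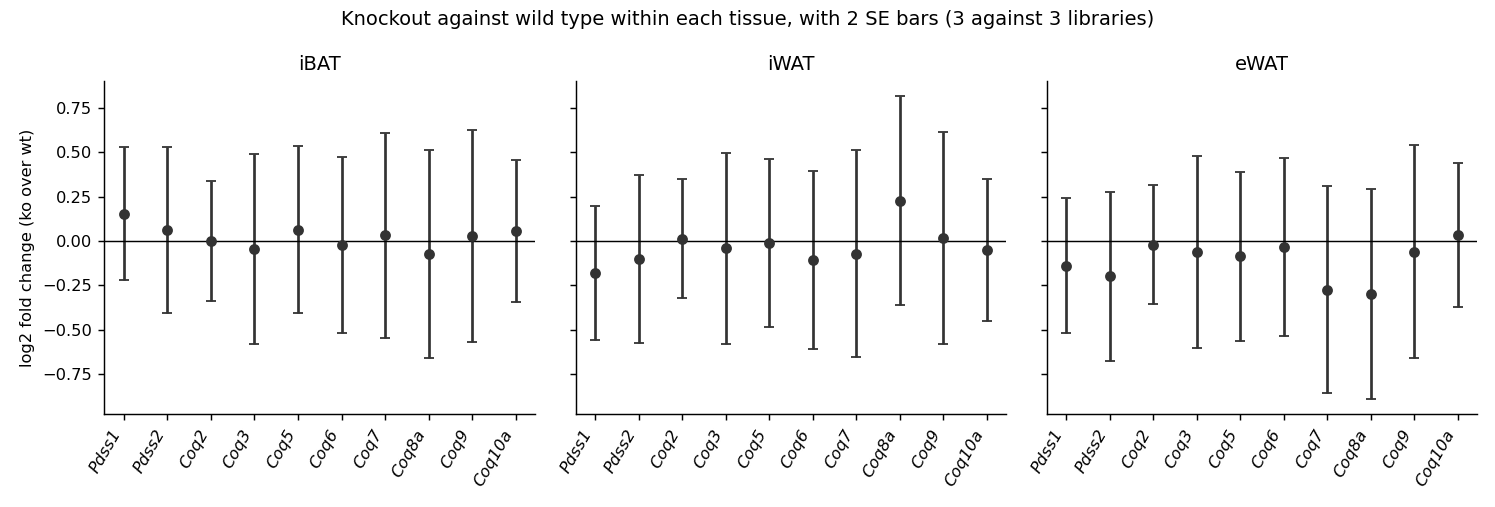
Log2 fold changes of ko over wt for the 10 coenzyme Q genes within iBAT, iWAT and eWAT, each from 3 against 3 libraries, with bars of 2 SE from the edgeR fit. Every bar crosses 0, and the values lie between -0.30 and 0.23.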

How the data were processed

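Polyadenylated RNA of 18 libraries (3 tissues, 2 genotypes, 3 mice each) was analysed from 1 deposited table of estimated counts, whole numbers per gene, which the authors made by quality filtering with cutadapt and quantifying with salmon against GENCODE transcripts of GRCm38, alone or combined with RNAcentral. Which of these references was used, software versions, the use of strand and how transcripts were summed to genes are not given in the sources used here. Every column matched a library title, and 0 columns were left out. The members, gene lists and markers were chosen with earlier results of these data known.

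Counts were tested with edgeR 4.0.16 (quasi-likelihood test, TMM, filterByExpr by group, R 4.3.3) in 1 model of tissue and genotype over all 18 libraries, and in a model of the 6 groups for genotype within tissues and the interaction. Genes were called at a Benjamini-Hochberg adjusted p below 0.05 over 18728 genes. Intervals are 2 SE. Log2 count ratios within libraries (pseudocount 0.5) were compared between tissues with exact two-sided sign-flip tests over 6 mice (Python 3.11.15, scipy 1.17.1), adjusted over 12 tests. Named genes were all 10 members, all 8 other coenzyme Q genes, the 2 most changed called genes in each direction of each further list in iBAT against iWAT, and the 3 genes most correlated with the 2 most changed members. Prodh was named after its value was seen.

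The mouse identifiers in the labels pair the tissues. Deviations from group means of 2 tissues of the same mouse correlated with a median of 0.057 (18 pairs, -0.165 to 0.326). Whether the mice of a group came from separate litters is not stated, so p-values hold for these mice only. The main edgeR models had no term for mouse and took libraries as independent, so their p-values measure the spread between libraries. That spread includes differences in the mixture of tissues in a library. The sign-flip tests took the mouse as the unit. The code was tested on simulated data: for genotype across tissues, with 18728 genes, 22% of 50 genes changed 1.5-fold and 62% of 50 changed 2-fold were called. Alternatives were DESeq2 1.42.0, its size factors, limma-voom (limma 3.58.1), other filters, a replicate block (by mouse for tissue and the interaction, by replicate number for genotype), fewer libraries and, added after seeing the data, library totals and the 4 mice that share an identifier prefix. Counting precision follows from 14997901 to 34389586 counts per library. Gene positions are from GENCODE M21 and promoter letters from RefSeq, both on GRCm38.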

Additional observations from a re-analysis of the deposited data

Results flagged for a closer look

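In iBAT ko 1, Pdss1 had 17.69 CPM, and the nearest of the other 5 iBAT libraries had 14.13 CPM. The gap was 0.758 of the range of the 6 libraries, above Dixon's critical value for 6 values. Among the 10 genes in 3 tissues 30 such comparisons were made, of which chance gives about 1.5, and this was the only 1 past the limit.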

How the results depend on the processing

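All 10 genes were called higher in iBAT than in iWAT and eWAT under every other filter, size factor, tool, block and choice of libraries tried. With library totals 9 of 10 were (with totals without the mitochondrially encoded genes, 9 against iWAT and 10 against eWAT), and Coq2 was at -0.15 against iWAT. Between iWAT and eWAT the main count was 1 (Coq8a). It was 8 without the 4 libraries that stood apart, 0 with wild type libraries only, 0 with only the 2 tissues compared, and 0 to 1 when each mouse was left out, with 0 without mouse ko 2 and without mouse wt 2. With only the 4 mice that share an identifier prefix, chosen after seeing the data, the counts were 10, 10 and 0. The cause was not tested. The block by mouse gave counts of 10, 10 and 1 for the tissue comparisons and 0 for the interaction, and with it Coq8a was at 0.76 (adjusted p = 0.03274, edgeR) between iWAT and eWAT. Genotype across and within tissues was blocked by replicate number instead, with counts of 0. Neither block changed a call of the 10 genes. Among the other coenzyme Q genes the block by mouse changed the calls of Hpdl, to called between iBAT and eWAT and not called between iWAT and eWAT. With the block by replicate number, the genes called for genotype across tissues went from 1 to 3 of 18728. The labels do not pair same-numbered wt and ko mice, although both replicate 2 mice carry another identifier prefix: their deviations correlated with a median of -0.028 (9 pairs, -0.465 to 0.551).

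Coq7 between iWAT and eWAT, at -0.01, turned to 0.14 without the 4 libraries and to 0.057 with the 4 mice of 1 prefix, and ran from -0.18 to 0.13 when each mouse was left out. Every genotype count was 0 under every alternative, and the genotype values near 0 changed sign across tissues. Without the 4 libraries they were 0.000895 for Pdss1, 0.037 for Coq2, 0.032 for Coq5, 0.015 for Coq6, 0.043 for Coq8a and 0.039 for Coq9. With the 4 mice of 1 prefix they were 0.0025 for Pdss2, 0.117 for Coq2, 0.021 for Coq3, 0.1135 for Coq5, 0.064 for Coq6, 0.017 for Coq7, 0.061 for Coq8a and 0.160 for Coq9. Coq2 and Coq9 were at 0.0055 and 0.0040 with DESeq2 size factors, 0.0057 and 0.0040 with DESeq2, and 0.00023 and 0.00091 with at least 10 counts in every library. Coq5 and Coq9 were at 0.0070 and 0.015 with limma-voom, Coq9 was at 0.015 with the replicate block, and Coq10a was at -0.0019 with library totals. Leaving out each mouse gave -0.13 to 0.04 for Pdss1, -0.18 to 0.0013 for Pdss2, -0.052 to 0.067 for Coq2, -0.14 to 0.045 for Coq3, -0.13 to 0.092 for Coq5, -0.17 to 0.036 for Coq6, -0.21 to 0.057 for Coq8a, -0.13 to 0.16 for Coq9 and -0.093 to 0.11 for Coq10a.

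The log2 difference of Coq8a over Coq8b between iBAT and iWAT was 5.13 without the mice of the 4 libraries, which left 2 mice. That of Coq10a over Coq10b between iWAT and eWAT was 0.31 without pairing by mouse (no replicate block), with adjusted p = 0.08081 in an exact permutation test. Differences within a genotype and tissue rest on 3 against 3 libraries, and the intervals of 2 SE limit what can be said of small changes.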
